A study of Mus musculus with 63 samples.

Results

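The 10 genes described here make up the machinery that makes, destroys, carries and senses retinoic acid: Cyp26a1, Cyp26b1, Cyp26c1, Aldh1a2, Dhrs3, Rara, Rarb, Rarg, Crabp1 and Crabp2. They were chosen by name, for their roles, with earlier results of these data known, and each had 1 row among the 24990 gene rows of every library. The libraries were poly(A) RNA-seq of R1 mouse embryonic stem cells (mESCs) and of the neural progenitor cells (NPCs) made from them, in 63 libraries that fall into 21 groups of 3. The study asks how Meteor, a long non-coding RNA locus next to the T-box gene Eomes, acts on Eomes and on the cells.

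The genotype series held 45 libraries of 5 lines: wild type (WT1, WT2), Meteor promoter KO (pKO1, pKO2) and Meteor promoter inversion (pInv), each in 2i, in serum and as NPCs. 2i medium contains PD0325901 at 1 μM and CHIR99021 at 3 μM, which inhibit MEK and GSK3, and serum medium contains 15% fetal calf serum. Both stem cell media contain LIF at 10 ng/ml, and both cultures were grown on mouse embryonic fibroblast feeders. The perturbation series held 18 libraries of 3 lines, an empty-vector control (Ctrl) and CRISPR/dCas9 knockdown of Meteor (KD1, KD2), in serum and as NPCs. NPCs were collected after 4 days in feeder-free culture in medium with B27 and N2. For Ctrl NPC replicate 3 the labels give no growth protocol. All lines are R1 cells, and the pInv and Ctrl groups are 1 line each. No growth protocol in the labels names added retinoic acid. B27 is sold with and without vitamin A, and the labels do not say which was used in 2i and NPC media.

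Retinoic acid is made from vitamin A (retinol) by oxidation to retinal and then, by enzymes such as ALDH1A2, to retinoic acid. DHRS3 runs the first step backwards, CYP26 enzymes oxidise retinoic acid for removal, and CRABP1 and CRABP2 bind it in the cytoplasm. In the nucleus it binds RARα, RARβ and RARγ, which pair with retinoid X receptors on DNA elements built from repeated hexamers. Retinoic acid drives stem cells out of pluripotency, helps to pattern the hindbrain and spinal cord, and turns on Cyp26a1 and Rarb themselves.

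The response elements of Cyp26a1 and Rarb lie close to their transcription starts, so these 2 promoters are shown. Each run covers 250 bases before to 50 bases after the start, 5′ to 3′ on the gene's own strand, from RefSeq on build GRCm38.p6. Capitals mark matches on either strand to the receptor hexamer AGGTCA, to its variant AGTTCA, to the form GGGTCA and to the form GGTTCA. Cyp26a1 lies on the plus strand at chr19:37697558-37697857 and Rarb on the minus strand at chr14:16575427-16575726.
Cyp26a1: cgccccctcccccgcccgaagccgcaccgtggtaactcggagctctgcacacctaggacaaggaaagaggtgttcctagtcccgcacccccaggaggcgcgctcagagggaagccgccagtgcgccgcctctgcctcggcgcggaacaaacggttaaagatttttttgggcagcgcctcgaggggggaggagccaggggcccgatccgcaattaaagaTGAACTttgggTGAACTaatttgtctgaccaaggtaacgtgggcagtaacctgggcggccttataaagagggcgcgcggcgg
Rarb: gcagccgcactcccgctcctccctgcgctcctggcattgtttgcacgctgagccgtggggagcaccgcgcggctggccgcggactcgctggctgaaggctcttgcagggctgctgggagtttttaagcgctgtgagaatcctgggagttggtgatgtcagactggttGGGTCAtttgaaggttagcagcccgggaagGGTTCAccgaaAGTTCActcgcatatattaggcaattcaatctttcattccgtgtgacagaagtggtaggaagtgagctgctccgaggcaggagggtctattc
In both windows 2 hexamers stand on the same strand with 5 bases between them, the spacing known as DR5. The Cyp26a1 repeat reads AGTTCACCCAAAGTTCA on the minus strand, at positions -32 to -16 from the start. The Rarb repeat reads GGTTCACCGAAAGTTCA on the gene's own strand, the minus strand of chr14, at -53 to -37. A DR5 repeat of these hexamers was found in 32 of 32851 RefSeq promoter windows (0.0974%), and a single hexamer in 43.7% of them. RefSeq gave windows for 9 of the 10 genes, 15 windows in all. Only Cyp26a1 and Rarb held a DR5, and none of the 15 windows held repeats with 2 bases or 1 base between the hexamers, which 0.268% and 0.222% of all windows do. A match is a stretch of letters, and binding was not measured.

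Levels within a gene are given as CPM, the deposited estimated count scaled to the library's total, which ran from 7566629 to 18553323 counts. Levels between genes are compared as TPM, which also corrects for transcript length. The row Platr11, which checks the perturbed locus, was at 4.56 to 26.9 CPM in WT libraries and at no more than 0.367 CPM in pKO and pInv libraries. It was at 0.497 to 4.10 CPM in KD and 8.31 to 23.9 CPM in Ctrl libraries. A set of 7 stem cell markers summed to 1625 to 3628 CPM in serum and 433 to 1387 CPM in NPCs, while 7 neural progenitor markers summed to 67.8 to 134 CPM in serum and 160 to 481 CPM in NPCs. Feeder fibroblast RNA was present in serum libraries, where all 16 fibroblast markers were detected. They summed to 1137 to 6024 CPM in the genotype series and 204 to 1073 CPM in the perturbation series, against 50.9 to 219 CPM in NPCs. Most of the 16 were still detected in NPCs, 13 to 15 in WT and pKO, 13 to 14 in pInv, 14 in Ctrl and 11 to 15 in KD libraries. In bulk RNA, fewer cells of a type and less RNA per cell cannot be told apart. The NPC libraries numbered 1 of all 3 perturbation lines stood apart in these genes, so results that rest on them are given with and without them.

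Per transcript length, 3 genes carried most of the RNA of the set in stem cells. In WT cells in 2i, Rarg stood at 59.0 ± 9.68 TPM (SD, n = 6), Rara at 50.5 ± 8.33 TPM and Crabp1 at 46.2 ± 11.5 TPM. The ranges of neighbouring genes in that order overlapped. Crabp2 followed at 6.00 ± 2.16 TPM, below the range of Crabp1, with Aldh1a2 at 2.76 ± 0.831 TPM and Dhrs3 at 2.70 ± 0.893 TPM. Rarb, Cyp26b1 and Cyp26a1 had means of 0.365, 0.230 and 0.0600 TPM.

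In serum Crabp1 led at 84.1 ± 19.96 TPM (SD, n = 6), ahead of Rarg at 49.7 ± 13.9 TPM and Rara at 46.2 ± 8.25 TPM, with overlapping ranges. Cyp26a1 came next, at 12.9 ± 7.43 TPM beside Crabp2 at 12.8 ± 1.68 TPM. In WT NPCs the binding proteins came first, Crabp1 at 182 ± 129 TPM and Crabp2 at 93.4 ± 24.1 TPM. Rarg and Rara were then at 23.3 ± 5.69 and 19.1 ± 5.64 TPM. Of the CYP26 genes Cyp26b1 had the highest mean there, at 4.57 ± 2.76 TPM, though its range overlapped that of Cyp26a1 at 2.41 ± 1.80 TPM.

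**Figure D1:**
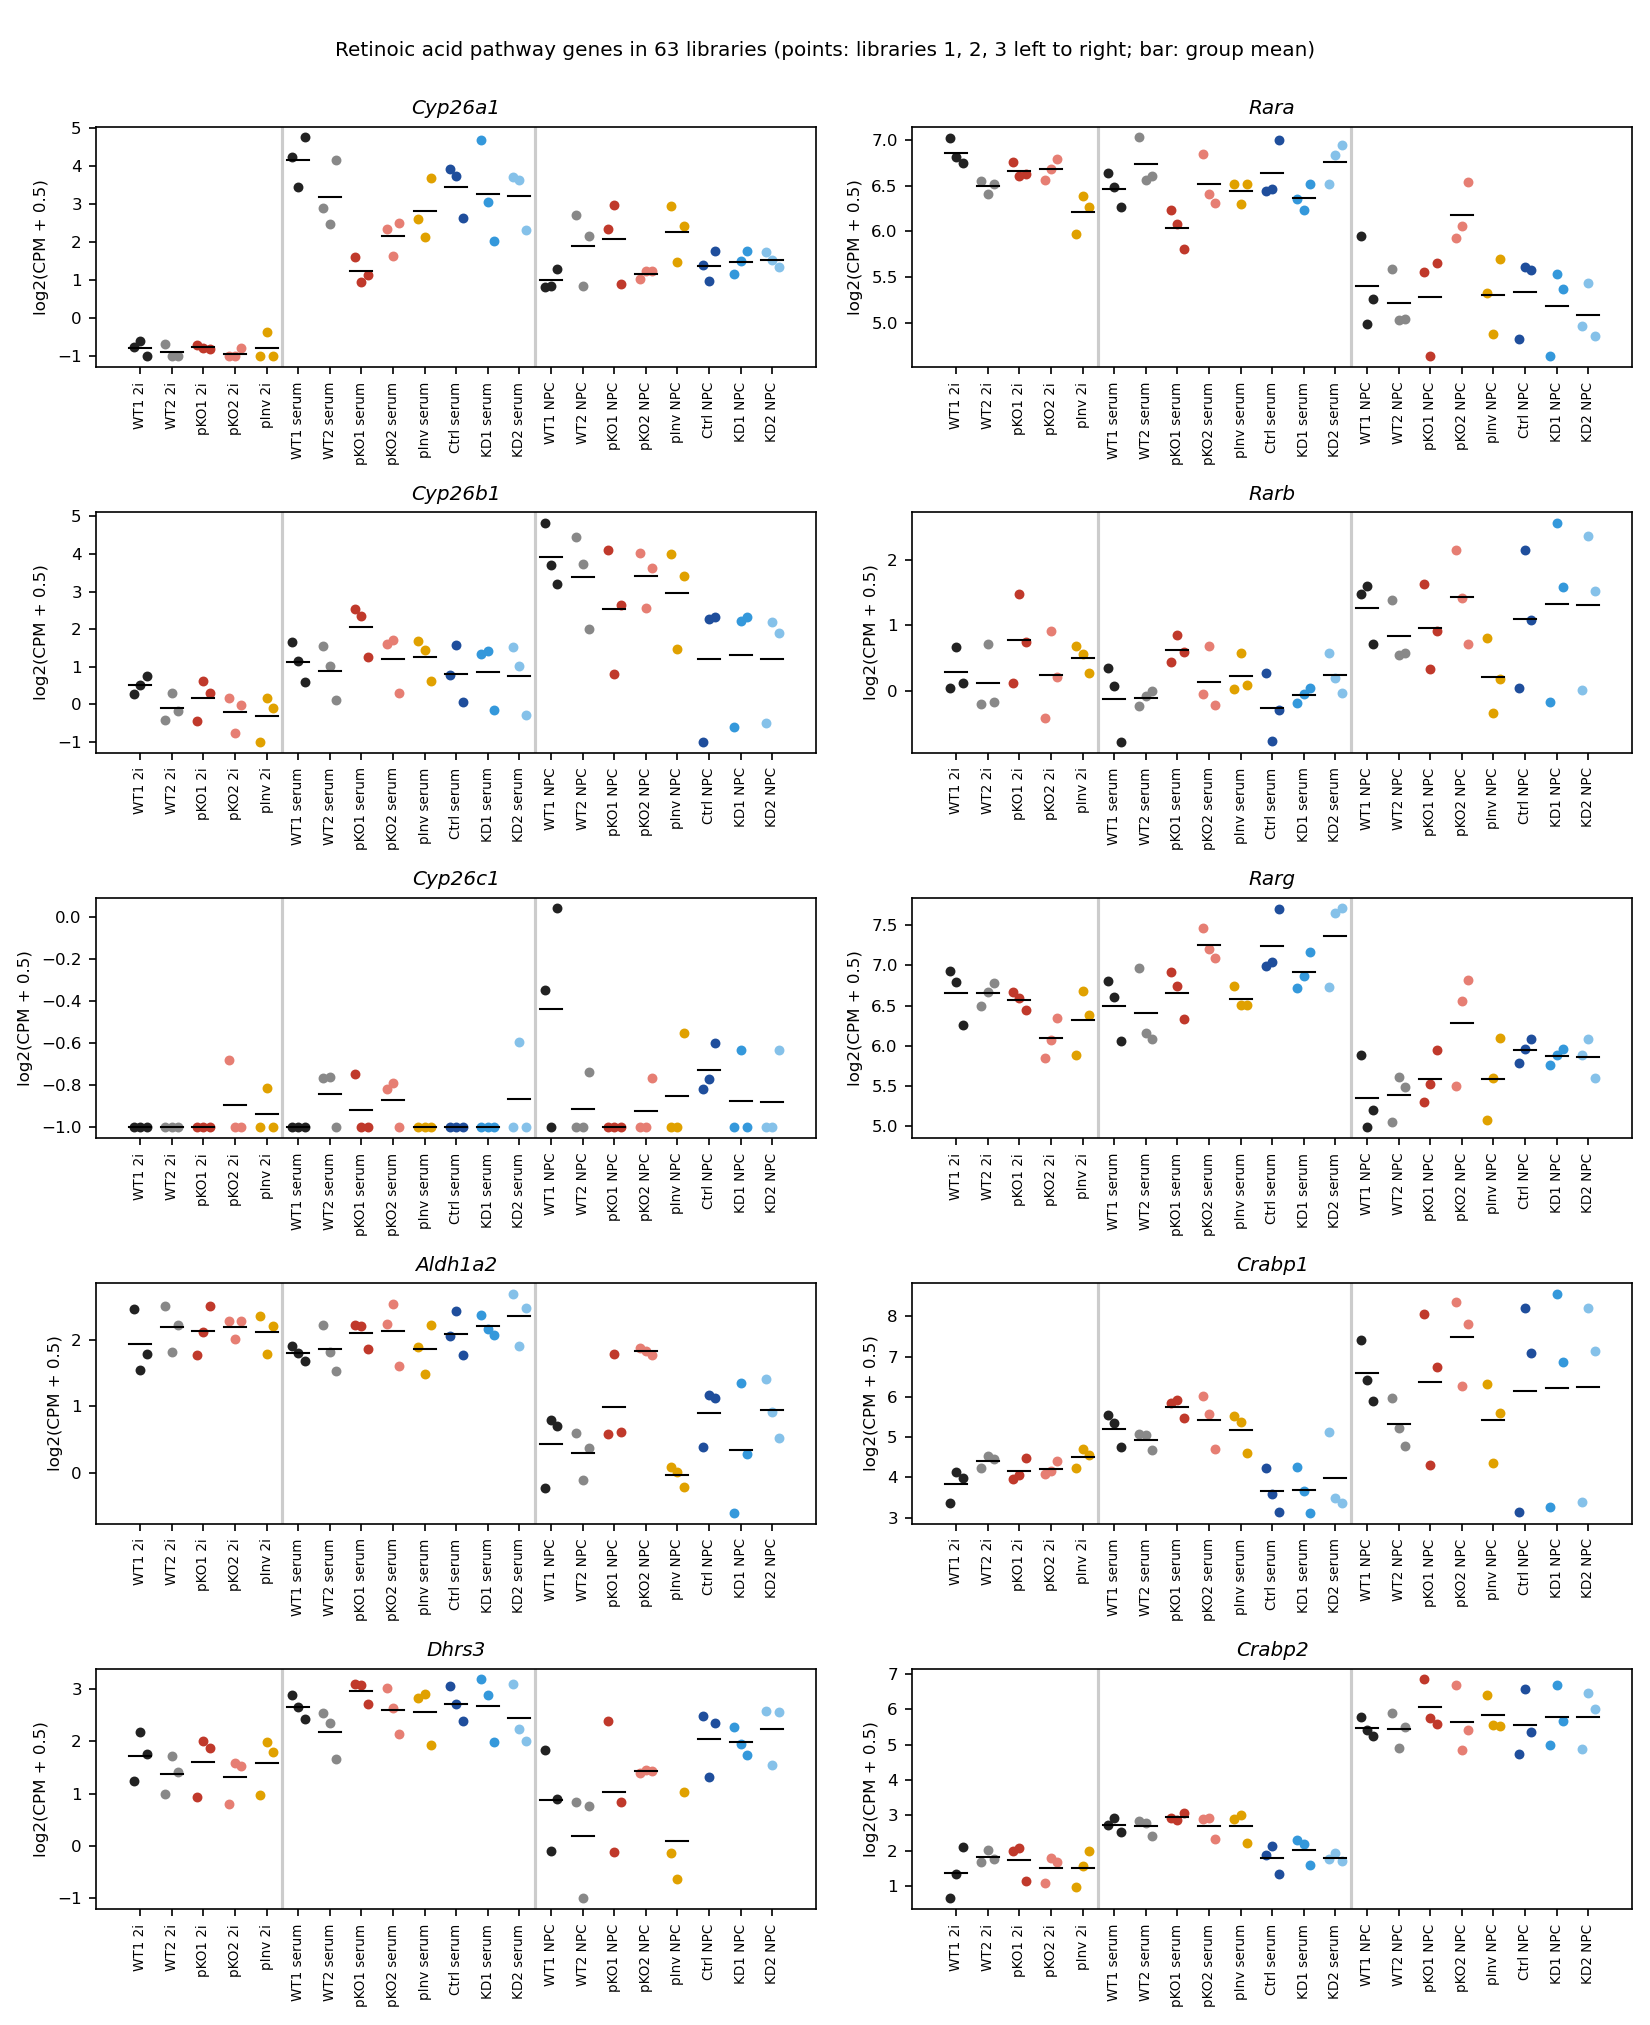
Each panel plots 1 gene as log2(CPM + 0.5) in 63 libraries, with points for libraries 1, 2 and 3 of each group from left to right, a bar at the group mean, and vertical lines between 2i, serum and NPC groups. Cyp26a1 is near 0 CPM in 2i and highest in serum, Crabp2 is highest in NPCs, and Cyp26c1 never passes 0.528 CPM.

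Cyp26c1, the third retinoic acid hydroxylase, was hardly detected. It had 32 counts over all 63 libraries and 0 in 45 of them, and its highest library, WT1 NPC replicate 3, had 7 counts (0.528 CPM). A count of 0 allows up to 0.162 to 0.396 CPM, depending on depth, and covers counting error only. It passed the low-count filter in no comparison. All counts of tested genes below therefore refer to at most 9 of the 10.

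The first comparison is of WT stem cells in serum with those in 2i. These media differ at least in the inhibitors and in fetal calf serum, and the parts of these cannot be told apart. Of 9 tested genes, 4 were higher in serum and 0 lower in edgeR's quasi-likelihood test at a Benjamini-Hochberg adjusted p under 0.05. Over all 15145 genes tested, 59% were called, 29.5% upwards and 29.5% downwards, so calls were common throughout the transcriptome. The median log2 fold change of the 9 was 0.95, against 0.0033 over all genes.

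Cyp26a1, the main CYP26 of early embryos, had the widest change of the 9. It was at 0.0895, 0.157 and 0 CPM in WT1 and 0.124, 0 and 0 CPM in WT2 in 2i. In serum it was at 18.5, 10.4 and 26.3 CPM in WT1 and 6.91, 5.10 and 17.2 CPM in WT2. Every serum library lay above every 2i library. Primitive streak markers summed to 13.4 to 23.6 CPM in the WT 2i libraries and 185 to 647 CPM in the serum libraries, and stem cell markers to 4142 to 5374 and 1625 to 2277 CPM. Their part in the result was not tested. The 6 serum libraries held 1005 counts and the 6 2i libraries 4, a ratio of pooled CPM of 244 with an exact 95% interval of 95.1 to 898 for counting error. The fitted log2 fold change was 7.74 ± 0.62 (SE, adjusted p = 7.3e-09).

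The binding proteins rose less. Crabp1 ranged from 9.84 to 22.6 CPM (median 17.6) in 2i and from 25.4 to 46.1 CPM (median 32.9) in serum, with a log2 fold change of 0.96 ± 0.24 (SE, adjusted p = 0.0022). Crabp2, which delivers retinoic acid to receptors, ranged from 1.07 to 3.79 CPM in 2i and from 4.88 to 7.12 CPM in serum (1.17 ± 0.24, adjusted p = 0.00033). Neither gene's groups overlapped. Fibroblast markers were higher in the same serum libraries too, at 1415 to 2833 CPM against 690 to 1380 CPM in 2i. Their part in these rises was not tested. Within line WT2 alone Crabp1 was not called (0.53, adjusted p = 0.213).

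Cyp26b1 ranged from 0.248 to 1.18 CPM in 2i and from 0.579 to 2.65 CPM in serum, with overlapping groups. Its log2 fold change of 1.26 ± 0.51 (SE) passed at an adjusted p of 0.039, and the call was lost in 8 of 12 fits that left out a library. Each line alone lost it too, at 0.88 in WT1 (adjusted p = 0.295) and 1.64 in WT2 (adjusted p = 0.0885). Fibroblast markers summed to 690 to 1380 CPM in these 2i libraries and 1415 to 2833 CPM in the serum libraries, and their part in the result was not tested.

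The receptors, Aldh1a2 and Dhrs3 gave no call between serum and 2i. Rara differed by -0.10 ± 0.15 (SE) and Rarg by -0.21 ± 0.19, both from medians near 100 CPM in 2i. Rarb, the receptor gene that retinoic acid itself induces, was at most 1.15 CPM in every WT library in both media and differed by -0.64 ± 0.47 (SE). Aldh1a2 differed by -0.32 ± 0.30 and Dhrs3 by 0.95 ± 0.47 (adjusted p = 0.089).

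Genes that handle retinoids upstream and downstream were counted from 3 textbook lists. Over all genes 59% were called, 29.5% in each direction. Of 13 tested genes of retinoid supply, 4 were higher and 2 lower in serum. Among these Rdh10, which makes retinal, differed by 1.22 ± 0.18 (SE). Rbp4, the carrier of retinol in plasma, fell by 1.74 ± 0.33. Of 15 retinoid X receptors and cofactors, 2 were higher and 7 lower, and Rxrg, the gene of RXRγ, was at 6.12 ± 0.55. Of 21 tested retinoic acid target genes, 10 were higher and 9 lower. Tshz1 was higher in serum (2.14 ± 0.20, SE), whereas the germ cell gene Stra8 and the homeobox gene Meis2 were lower (-4.54 ± 0.52 and -3.57 ± 0.29). The targets split in both directions.

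From serum mESCs to NPCs all 9 tested genes changed in WT cells, 4 upwards and 5 downwards, where 66.3% of all 15145 genes changed, 32% upwards and 34.3% downwards. The median log2 fold change of the 9 was -1.19, against -0.02 over all genes. Every one of these calls held in all 12 fits that left out a library.

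Among the breakdown enzymes the order of the means turned over in WT cells. Cyp26a1 fell by 2.58 ± 0.39 (SE, adjusted p = 1.2e-05) on the log2 scale, to 1.28, 1.31 and 1.96 CPM in WT1 NPCs and 6.07, 1.29 and 3.99 CPM in WT2 NPCs. Primitive streak markers went from 185 to 647 CPM in serum to 4.14 to 31.3 CPM in NPCs, and their part in this fall was not tested. The Cyp26a1 groups overlapped, since WT2 NPC replicate 1 lay above WT2 serum replicate 2. Cyp26b1, which clears retinoic acid in the developing hindbrain and limbs, was at 27.9, 12.6 and 8.67 CPM in WT1 NPCs and 21.3, 12.9 and 3.49 CPM in WT2 NPCs. All 6 values lay above the serum range, and the log2 fold change was 3.02 ± 0.43 (SE, adjusted p = 6.6e-06).

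Set side by side per length in each library, Cyp26a1 was above Cyp26b1 in 23 of 24 serum libraries, and pKO1 serum replicate 2 was the exception. Cyp26b1 was above Cyp26a1 in 10 of 15 genotype-series NPC libraries. None of these was pInv: Cyp26a1 made up 57.1 to 74.1% of the summed TPM of the pair in the 3 pInv NPC libraries. In perturbation-series NPCs Cyp26a1 remained above in 8 of 9. Cyp26a1 made up 94.5 ± 4.05% (SD, n = 6) of the summed TPM of the pair in WT serum cells and 36.4 ± 23.2% in WT NPCs.

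**Figure D2:**
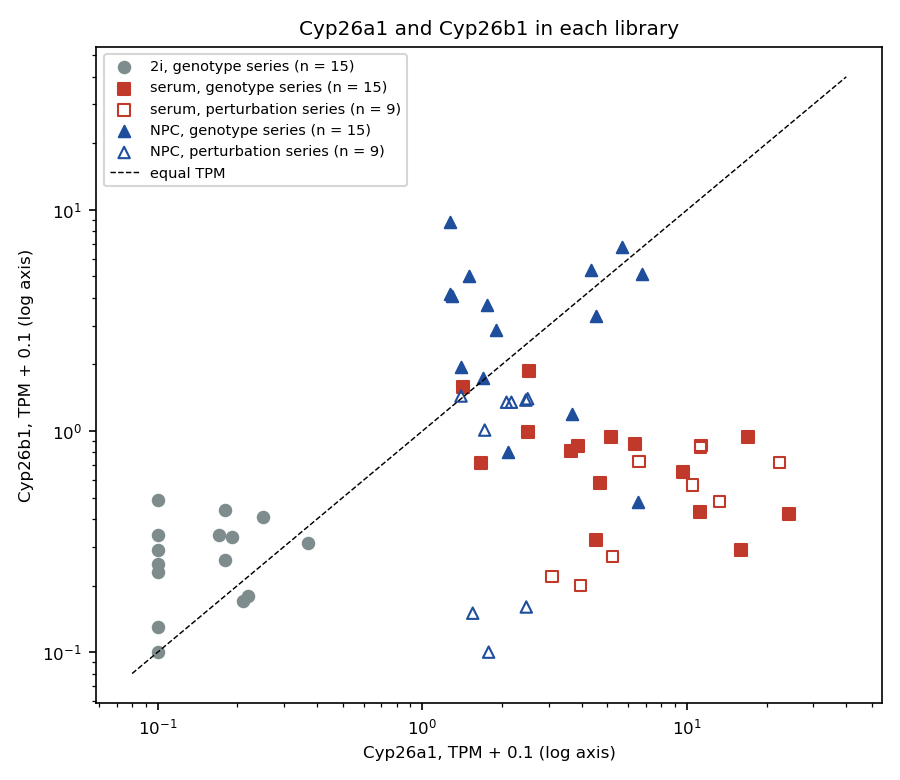
Each point is a library, with Cyp26a1 on the x axis and Cyp26b1 on the y axis as TPM + 0.1 on log axes; circles are 2i, squares serum and triangles NPC libraries, filled for the genotype series and open for the perturbation series, and the dashed line marks equal TPM. In serum 23 of 24 libraries lie on the Cyp26a1 side, whereas 10 of 15 genotype-series NPC libraries, none of them pInv, lie on the Cyp26b1 side.

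The genes of the enzymes that act on retinal, 1 towards and 1 away from retinoic acid, both fell in WT NPCs. Aldh1a2, which makes retinoic acid from retinal, ranged from 2.40 to 4.20 CPM (median 3.02) in serum and from 0.356 to 1.24 CPM (median 0.905) in NPCs, with no overlap (-2.01 ± 0.33, SE, adjusted p = 3.6e-05). Dhrs3, which returns retinal to retinol, ranged from 2.65 to 6.84 CPM in serum and from 0 to 3.06 CPM in NPCs (-2.24 ± 0.50, adjusted p = 0.00071). Its ranges overlapped through WT1 NPC replicate 1, at 3.06 CPM. Fibroblast markers fell as well, from 1415 to 2833 CPM in WT serum cells to 160.5 to 208 CPM in WT NPCs. Macrophage markers went from 159.7 to 361 CPM to 3.92 to 8.14 CPM. The part of either marker set in the falls of Aldh1a2 and Dhrs3 was not tested.

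The receptors moved in opposite directions. Rara fell by 1.37 ± 0.15 (SE, adjusted p = 3.7e-07), from 76.7 to 130 CPM in serum to 31.3 to 61.3 CPM in NPCs. Rarg fell by 1.19 ± 0.19 (adjusted p = 3.1e-05), from 66.0 to 125 CPM to 31.0 to 58.5 CPM. Neither overlapped between the states. Rarb was at 0.0842 to 0.769 CPM in serum and 0.970 to 2.54 CPM in NPCs, again with no overlap (1.74 ± 0.44, adjusted p = 0.0021). It remained a small share of receptor RNA: Rarb made up 0.232 ± 0.107% (SD, n = 6) of the summed TPM of the 3 receptor genes in WT serum cells and 1.96 ± 1.03% in WT NPCs.

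Crabp2 had the clearest rise of the set. It ranged from 4.88 to 7.12 CPM (median 6.30) in WT serum cells and from 29.5 to 58.8 CPM (median 43.3) in WT NPCs, a log2 fold change of 2.77 ± 0.22 (SE, adjusted p = 4.2e-09). Crabp1 was at 171, 85.5 and 59.4 CPM in WT1 NPCs and 61.9, 37.2 and 27.1 CPM in WT2 NPCs. The WT2 values reached into the serum range of 25.4 to 46.1 CPM. The Crabp1 change was 0.88 ± 0.23 (adjusted p = 0.0029) over both lines, and in WT2 alone it was 0.34 (adjusted p = 0.409). Rarb was likewise not called in WT2 alone (1.49, adjusted p = 0.0599). Crabp1 made up 86.5 ± 1.71% (SD, n = 6) of the summed TPM of the 2 binding proteins in WT serum cells and 61.8 ± 12.8% in NPCs.

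**Figure D3:**
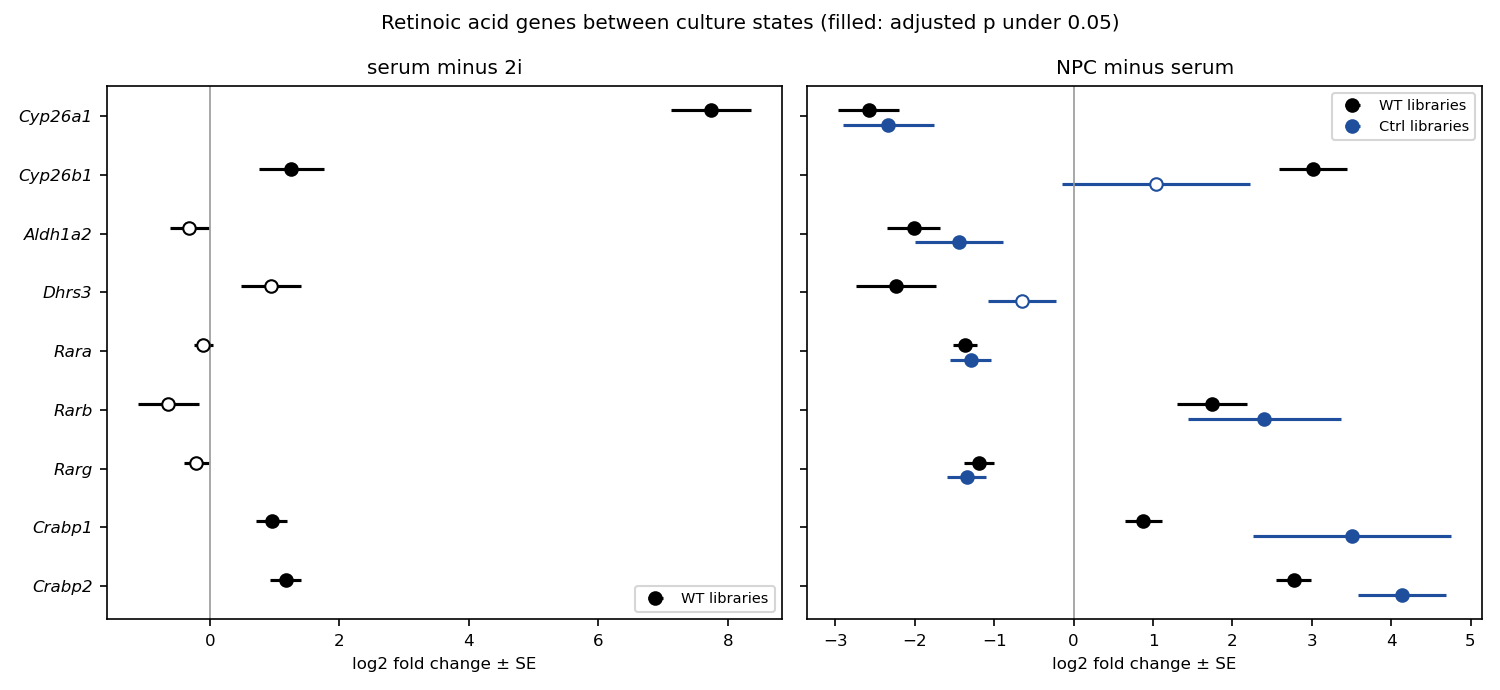
Log2 fold changes with SE of 9 genes in edgeR fits, at left between serum and 2i in WT cells and at right between NPCs and serum in WT (black) and Ctrl (blue) cells; filled points have an adjusted p under 0.05. Cyp26a1 is at 7.74 at left and at -2.58 (WT) and -2.34 (Ctrl) at right, while Crabp2 is above 0 throughout.

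The 3 wider lists were called in shares on either side of the 66.3% of all genes. Of 13 tested supply genes, 4 were higher and 6 lower than in WT serum cells, among them Aldh1a3, another retinal dehydrogenase, at -4.20 ± 0.70 (SE) and Aldh1a7 at 2.73 ± 0.48. Of 15 partners and cofactors, 2 were higher and 6 lower, with Rxrb at -0.74 ± 0.16. Of 21 tested targets, 8 were higher and 10 lower. Meis1 and Meis2, homeobox partners of HOX proteins, were higher (2.45 ± 0.26 and 3.10 ± 0.29, SE). The Nodal inhibitor gene Lefty1 was lower (-3.20 ± 0.29).

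The Ctrl line, which carries an empty vector, gave separate libraries of the same step. Of 9 tested genes, 3 were higher and 4 lower in its NPCs than in its serum cells, where 54.4% of 14374 genes were called, 27.2% in each direction. The median of the 9 was -0.65, against -0.0022 over all genes. Cyp26a1 was at 14.7, 12.9 and 5.75 CPM in serum and 2.15, 1.48 and 2.89 CPM in NPCs, without overlap (-2.34 ± 0.57, SE, adjusted p = 0.0028). Without replicate 2 this became -1.97 (adjusted p = 0.0742).

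Rara fell by 1.30 ± 0.26 (SE) in Ctrl cells (adjusted p = 0.00055) and Rarg by 1.35 ± 0.25 (adjusted p = 0.00035), and both calls held whichever replicate was left out. Crabp2 rose by 4.14 ± 0.55 (adjusted p = 2.4e-05), from 3.17, 3.89 and 2.05 CPM in serum to 26.4, 93.8 and 40.5 CPM in NPCs. Without the perturbation NPC libraries numbered 1 the Crabp2 change was 4.46 ± 0.38 (SE). Aldh1a2 fell by 1.44 ± 0.55 (adjusted p = 0.036), a call lost without any 1 of the 3 replicates (adjusted p = 0.0649 to 0.133).

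Replicate 1 of the Ctrl NPCs stood apart in the remaining genes. Crabp1 was at 8.38 CPM there against 295 and 135 CPM in replicates 2 and 3, and at 18.4, 11.6 and 8.35 CPM in serum. Its log2 fold change was 3.51 ± 1.25 (SE, adjusted p = 0.026) over all libraries and 4.07 ± 0.59 (adjusted p = 8.5e-05) without the perturbation NPC libraries numbered 1. Rarb was at 0.536, 3.93 and 1.61 CPM in NPCs and changed by 2.40 ± 0.96 (adjusted p = 0.044), or by 2.86 ± 0.63 (adjusted p = 0.0018) without those libraries. Cyp26b1 was at 0, 4.36 and 4.498 CPM in NPCs. It was not called over all libraries (1.04 ± 1.19, SE) and was 1.64 ± 0.66 (adjusted p = 0.048) without those numbered 1. Leaving these out was chosen after seeing that Cyp26b1, Crabp1, Crabp2 and Rarb were low there, so the values without them describe the other libraries and support no call. Crabp1 and Rarb lost their calls without replicate 2 (adjusted p = 0.213 and 0.431) or replicate 3 (adjusted p = 0.191 and 0.215).

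Dhrs3 was not called in Ctrl cells (-0.65 ± 0.43, SE), at 7.86, 6.02 and 4.73 CPM in serum and 5.10, 2.01 and 4.58 CPM in NPCs. Same-numbered perturbation libraries deviated together, so the numbers were taken as pairs. With the number as a block, Dhrs3 passed (-0.70 ± 0.26, adjusted p = 0.021) and the other calls were kept. The wider lists gave 4 higher and 2 lower of 10 supply genes, 1 and 7 of 15 partners and cofactors, and 8 and 3 of 20 targets in Ctrl NPCs. Over all genes 54.4% were called, 27.2% in each direction. Rxrb, the gene of RXRβ, was lower, at -1.37 ± 0.26 (SE), and Tgm2, which encodes transglutaminase, was at -3.11 ± 0.48.

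The split of the perturbation NPCs by number ran through all 3 lines alike. Crabp1 was at 8.38, 9.05 and 9.94 CPM in the libraries numbered 1 of Ctrl, KD1 and KD2, against 115 to 376 CPM in the other 6. Cyp26b1 was at 0, 0.157 and 0.205 CPM against 3.25 to 4.53 CPM. Rarb was at 0.393 to 0.536 CPM against 1.61 to 5.40 CPM, and Crabp2 at 26.4 to 31.2 CPM against 40.5 to 103 CPM. These 4 genes showed no overlap between the libraries numbered 1 and the rest. Cyp26a1, Aldh1a2, Dhrs3, Rara and Rarg overlapped.

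Some marker sums separated these libraries too. Stem cell markers summed to 1118 to 1319 CPM in the libraries numbered 1 and 1151 to 1387 CPM in the others. Neural progenitor markers summed to 166 to 207 CPM, with 6 of 7 detected, against 196 to 302 CPM, and both of these sets overlapped. Primitive streak markers were higher in the libraries numbered 1 without overlap, at 26.1 to 197 CPM against 12.8 to 18.2 CPM. Fibroblast markers were too, at 74.0 to 79.3 CPM against 50.9 to 65.3 CPM, with 14 of 16 detected. So were macrophage markers, at 6.03 to 7 CPM against 3.84 to 5.22 CPM, with 1 to 2 of 5 detected. The part of any of these in the split was not tested.

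**Figure D4:**
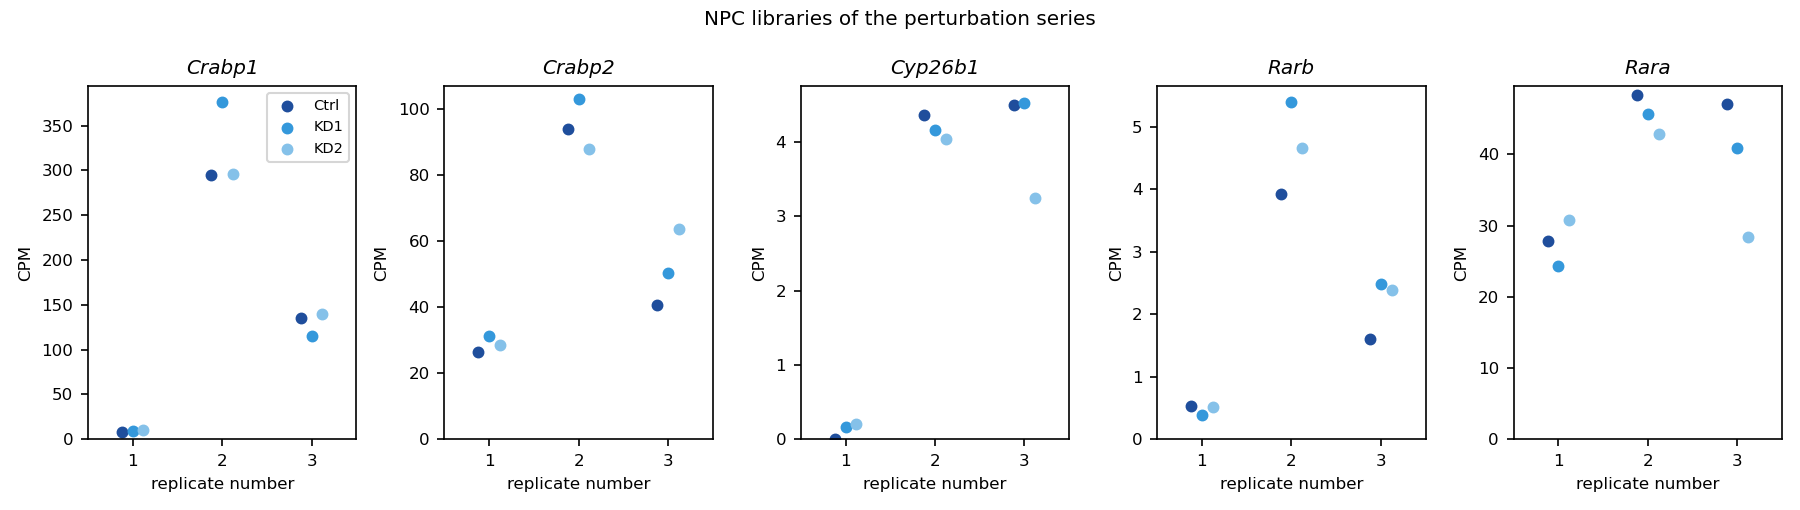
CPM of 5 genes in the 9 NPC libraries of the perturbation series, by replicate number on the x axis, with Ctrl, KD1 and KD2 in 3 shades of blue. Crabp1, Crabp2, Cyp26b1 and Rarb are lower in all 3 libraries numbered 1 than in the other 6, while the ranges of Rara overlap.

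In the main fit, which leaves the replicate number out, deletion of the Meteor promoter lowered 1 gene of the set in serum. Of 9 tested genes, 1 was lower and 0 higher in pKO than in WT serum cells, while 5.95% of 14197 genes were called, 4.18% downwards and 1.77% upwards. The median of the 9 was 0.44, against 0.02 over all genes. The gene was Cyp26a1, at 2.57, 1.42 and 1.68 CPM in pKO1 and 4.55, 2.63 and 5.16 CPM in pKO2, against the WT values of 5.10 to 26.3 CPM given above. The groups touched at 1 point, where pKO2 replicate 3 (5.16 CPM) exceeded WT2 replicate 2 (5.10 CPM).

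The log2 fold change of Cyp26a1 was -2.22 ± 0.37 (SE, adjusted p = 0.0040). Leaving out any 1 of the 12 libraries kept the call, at -2.37 to -1.88. With pKO2 as the only deletion line it was -1.63 (adjusted p = 0.0707), and with lines as replicates, 2 against 2, it was -2.19 (adjusted p = 0.0913). The WT lines themselves differed by -0.88 ± 0.48 (WT2 minus WT1, SE, adjusted p = 0.677). Primitive streak markers, of which Eomes is 1 of 7, moved with it, summing to 185 to 647 CPM in WT and 62.5 to 233 CPM in pKO serum cells, and their part in the result was not tested.

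In the main fit no other gene of the set passed in serum. With the replicate number as a block more of the set passed. Calls over all 14197 genes then rose from 845 to 2887, 1503 upwards and 1384 downwards, so the count depends on this choice. Serum numbers were not taken as pairs, since 29 of 30 same-numbered pairs had a correlation of deviations over 0.1 and every pair was required. They came close to that rule, with a lowest correlation of 0.097 and a median of 0.335. The values below are from the main fit unless DESeq2 is named. Rarg ranged from 66.0 to 125 CPM in WT and 79.8 to 176 CPM in pKO (0.52 ± 0.18, SE, adjusted p = 0.0987), and passed in DESeq2 (0.53, adjusted p = 0.0493). Crabp1 ranged from 25.4 to 46.1 CPM in WT and 25.5 to 64.5 CPM in pKO (0.60 ± 0.23, adjusted p = 0.139). Rara went the other way, at -0.27 ± 0.13 (adjusted p = 0.231). Cyp26b1 (0.82 ± 0.41) and Rarb (0.92 ± 0.41) each had adjusted p over 0.05 and overlapping groups. Fibroblast markers summed to a median of 2225 CPM in WT and 3634 CPM in pKO serum libraries, and their part in these values was not tested.

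Shares of receptor RNA separated the groups. Rara made up 43.0 to 55.2% of the summed TPM of the 3 receptor genes in WT serum libraries and 32.5 to 36.7% in pKO serum libraries, with no overlap. It made up 42.0 to 45.7% in pInv serum libraries. The Ctrl line, which carries no deletion, lay at 34.1 to 36.3% in serum, in the pKO range. In 2i the share was 41.1 to 54.2% in WT and 45.3 to 57.9% in pKO, and in NPCs 35.4 to 53.9% and 31.0 to 51.8%. These shares were examined after their values were seen and carry no test.

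In 2i, pKO changed 0 of 8 tested genes, where 9.06% of 13938 genes were called, 3.29% upwards and 5.77% downwards. At an unadjusted p under 0.05 there was 1, Rarg, at -0.30 ± 0.14 (SE, adjusted p = 0.2004), and DESeq2 called 0. Rara differed by 0.03 ± 0.08. Cyp26a1 was too low to test in 2i, with 4 counts in 6 pKO libraries and 4 in 6 WT libraries.

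In NPCs pKO changed 1 of 9 tested genes, upwards, where 8.05% of 14511 genes were called, 3.45% upwards and 4.6% downwards. The median of the 9 was 0.57, against 0.01 over all genes. Aldh1a2 was at 1.00, 2.94 and 1.04 CPM in pKO1 and 3.18, 3.04 and 2.92 CPM in pKO2, against 0.356, 1.24 and 1.13 CPM in WT1 and 1.01, 0.431 and 0.797 CPM in WT2. All 3 pKO2 libraries lay above every WT library, and 2 of the pKO1 libraries lay within the WT range. The log2 fold change was 1.505 ± 0.44 (SE, adjusted p = 0.045). It kept its direction but lost the call in 10 of 12 fits without 1 library (1.12 to 1.65). With pKO1 alone it was 1.07 (adjusted p = 0.230).

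The other values in pKO NPCs lay mostly above WT without passing. Rarg was at 0.65 ± 0.24 (SE, adjusted p = 0.103), Rara at 0.47 ± 0.21 (adjusted p = 0.177) and Crabp1 at 1.35 ± 0.49 (adjusted p = 0.1001). Crabp1 was at 267, 19.3 and 106 CPM in pKO1 and 328, 76.3 and 223 CPM in pKO2, so the spread within a line was wide. With pKO2 as the only deletion line against WT, Rara (0.92, adjusted p = 0.040) and Rarg (1.06, adjusted p = 0.040) passed as well. Stem cell markers summed to 467 to 805 CPM in WT and 561 to 994 CPM in pKO NPCs, and primitive streak markers to 4.14 to 31.3 and 30.1 to 143 CPM. Their part in these values was not tested.

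Cyp26a1 in NPCs did not show the serum difference. It was at 4.59, 7.40 and 1.38 CPM in pKO1 NPCs and 1.55, 1.84 and 1.86 CPM in pKO2 NPCs, within reach of the WT values (0.28 ± 0.43, SE). The pKO effect in NPCs minus that in serum was itself tested. For Cyp26a1 it was 2.46 ± 0.57 (SE, adjusted p = 0.0104), the only 1 of 9 tested genes called, and upwards, where 4.02% of 15679 genes were called, 1.97% upwards and 2.05% downwards. The call was lost without the replicates numbered 2 (1.96, adjusted p = 0.221) or 3 (2.36, adjusted p = 0.0836). For Rara the difference was 0.71 ± 0.23 (adjusted p = 0.0708). The pKO effect in serum minus that in 2i gave 0 calls of 9 in edgeR and in DESeq2, where 1.13% of genes were called, and 1 of the 9, Rarg, had an unadjusted p under 0.05 (0.84 ± 0.29, adjusted p = 0.160).

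**Figure D5:**
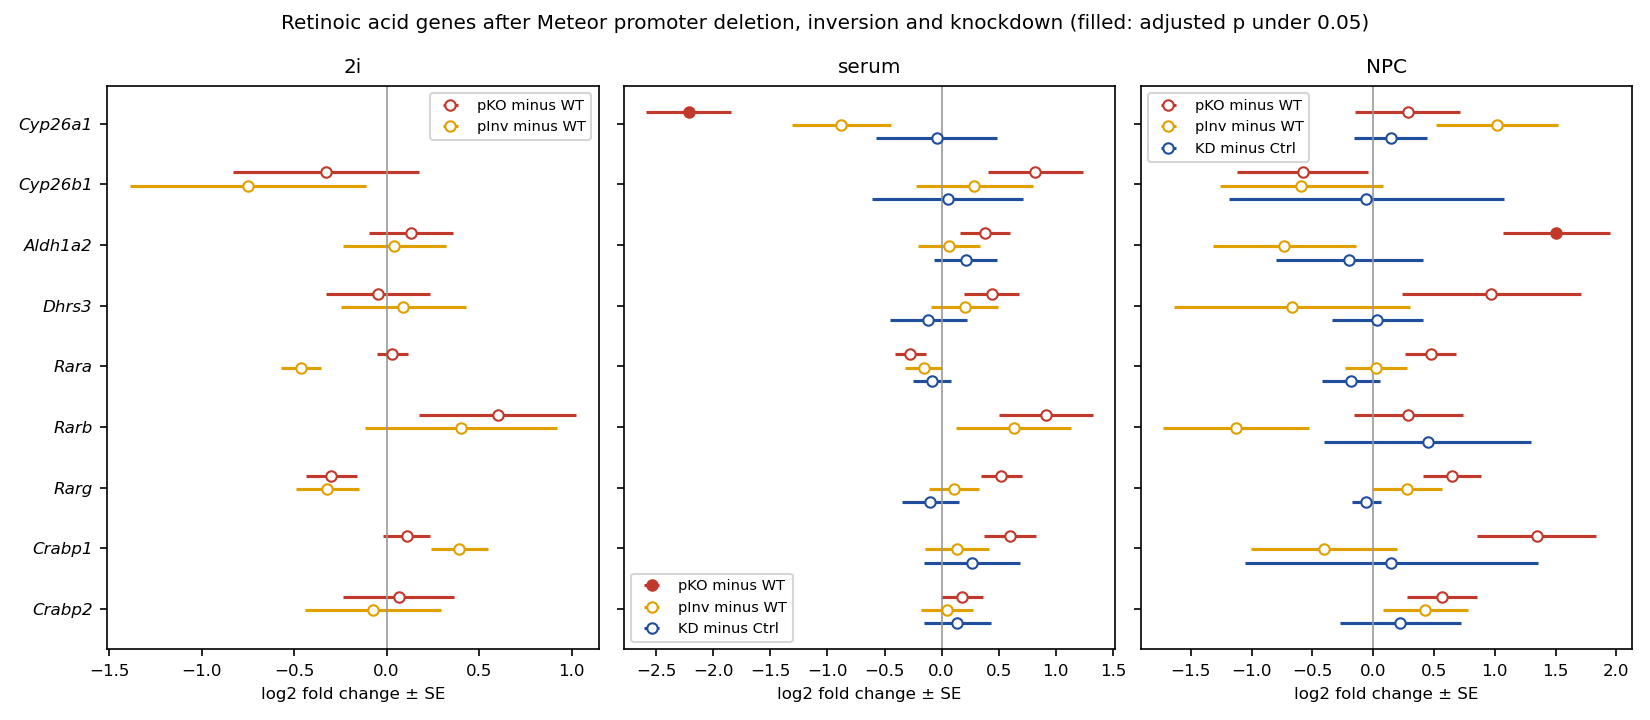
Log2 fold changes with SE of the tested genes in 2i, serum and NPCs, for pKO minus WT (red), pInv minus WT (yellow) and KD minus Ctrl (blue), from edgeR fits; filled points have an adjusted p under 0.05. The filled points are Cyp26a1 in serum (-2.22) and Aldh1a2 in NPCs (1.505), both in pKO.

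Called targets of retinoic acid went both ways after promoter deletion, while the medians of all tested targets lay above 0. The median log2 fold change of the tested targets was 0.55 in serum, 0.57 in NPCs and 0.027 in 2i. Over all genes it was 0.019, 0.0089 and -0.0075. These medians carry no test. The shares of all genes called were 5.95% in serum, 8.05% in NPCs and 9.06% in 2i. In serum 1 of 20 tested targets was called, the hindbrain gene Hoxb1, which was lower in pKO (-2.20 ± 0.49, SE, adjusted p = 0.016). In NPCs 4 of 16 were called, all higher, of which Stra6 stands in the supply list too. Hoxb1 was at 2.47 ± 0.57, Hoxa5 at 4.38 ± 0.97, Lefty1 at 1.88 ± 0.33 and the retinol transporter gene Stra6 at 1.07 ± 0.32. The difference of the pKO effect between NPCs and serum was 4.65 ± 0.83 for Hoxb1 (adjusted p = 0.00077), 3.88 ± 0.90 for Hoxa5 and 2.00 ± 0.35 for Lefty1. In 2i 1 of 19 targets was called upwards and 1 downwards, the latter Zfp423 (-0.67 ± 0.12, SE).

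Single supply genes were called in pKO cells. Rdh11, a retinal reductase, was lower in serum (-0.70 ± 0.13, SE), 1 of 12 tested supply genes, and Rbp4 was lower in 2i (-1.13 ± 0.32), 1 of 10. Med1, a subunit of the mediator complex, was lower in serum (-0.60 ± 0.10) and in NPCs (-0.59 ± 0.09). Rxrg, which encodes RXRγ, was higher in NPCs (1.11 ± 0.30). In all, 2 of 15 partners and cofactors were called in serum (5.95% of all genes), 3 of 15 in NPCs (8.05%) and 3 of 14 in 2i (9.06%). Those in 2i were all lower, Fabp5 at -0.40 ± 0.08 (SE), Ncoa1 at -0.33 ± 0.09 and Ncor1 at -0.18 ± 0.05.

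Inversion of the Meteor promoter gave no call in the set in any state in the main fits, which leave the replicate number out. With the number as a block 1 gene of the set passed in 2i, as given below. In 2i 0 of 8 were called, where 0.911% of genes were. In serum 0 of 9 were called against 0.0563% of genes (0.00704% upwards), and in NPCs 0 of 9 against 0.0138%. At an unadjusted p under 0.05 there were 2 in 2i, 0 in serum and 0 in NPCs. DESeq2 called 1 in 2i and 0 in the other states.

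That gene was Rara, which came closest. It was at 62.2, 83.3 and 76.3 CPM in pInv 2i cells, below all WT libraries, which were at 129, 112 and 107 CPM in WT1 and 93.1, 84.5 and 91.2 CPM in WT2. The log2 fold change was -0.46 ± 0.11 (SE, adjusted p = 0.0543). Same-numbered 2i libraries deviated together, and with the number as a block it passed (-0.45 ± 0.10, adjusted p = 0.016). With the block 398 genes were lower in pInv over all genes, against 48 without it, and in pKO 1246 were higher and 1666 lower, against 459 and 804.

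Cyp26a1 was at 5.64, 3.87 and 12.3 CPM in pInv serum cells, between most pKO and most WT values (-0.88 ± 0.43, SE, adjusted p = 0.999). In pInv NPCs it was at 7.16, 2.27 and 4.81 CPM (1.02 ± 0.50, adjusted p = 0.726), and Rarb at 1.25, 0.292 and 0.636 CPM (-1.13 ± 0.60, adjusted p = 0.743). Aldh1a2 was at 0.556, 0.512 and 0.363 CPM there, within the WT range (-0.73 ± 0.59). With 1 line of 3 libraries these intervals are wide. No gene of the 3 lists was called for pInv in any state. The pInv effect in NPCs minus that in serum gave 0 calls of 9, where 0.00638% of genes were called. At an unadjusted p under 0.05 there were 2, Cyp26a1 (1.87 ± 0.67, SE) and Rarb (-1.79 ± 0.80), and DESeq2 called 0.

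The 2 wild-type lines differed in 2i, where 18% of 13938 genes were called between WT2 and WT1, 9.21% upwards and 8.77% downwards. Crabp1 was higher in WT2 (18.3, 22.6 and 21.5 CPM against 9.84, 16.9 and 15.4 CPM, 0.56 ± 0.18, SE, adjusted p = 0.045). Rara was lower in WT2, at the values given above (-0.40 ± 0.12, adjusted p = 0.032). Both calls, 2 of 8 tested, were lost without WT1 replicate 1 or WT2 replicates 2 or 3 (adjusted p = 0.0905 to 0.135). In serum 0 of 9 were called against 0.528% of genes, and in NPCs 0 of 9 against 0.103% (0.00689% upwards). In both states 0 had an unadjusted p under 0.05, and DESeq2 called 0. The widest NPC values were Crabp1 at -1.35 ± 0.69 (adjusted p = 0.639) and Cyp26a1 at 1.26 ± 0.62 (adjusted p = 0.615).

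Knockdown of Meteor by dCas9 gave no call in the main fits, which leave the replicate number out. These edgeR fits did not call Platr11 itself, at -3.39 ± 0.45 (SE, adjusted p = 0.18) in serum and -2.85 ± 0.34 (adjusted p = 0.138) in NPCs. An absent call in them therefore does not show an absent change. In serum 0 of 8 tested genes and 0% of 13644 genes passed in edgeR, and in NPCs 0 of 9 and 0% of 13454 genes. At an unadjusted p under 0.05 there were 0 of the set in either state, and 138 and 179 genes in all. With the number as a block, 1 gene passed in serum and 2 in NPCs over all genes, Platr11 in both (adjusted p = 6.2e-06 and 2.1e-05), and none of the set. DESeq2 called 1 and 2 genes in all, and 0 of the set.

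Cyp26a1 in serum was at 25.2, 7.83 and 3.57 CPM in KD1 and 12.6, 11.8 and 4.46 CPM in KD2, with Ctrl at 14.7, 12.9 and 5.75 CPM. In each line the library numbered 3 was lowest, and KD differed from Ctrl by -0.04 ± 0.53 (SE). In NPCs the errors of Crabp1 (0.15 ± 1.21) and Cyp26b1 (-0.06 ± 1.13) were wide over all libraries, and without those numbered 1 the values were 0.15 ± 0.44 and -0.11 ± 0.26. Rarb was at 0.45 ± 0.85 (SE) with and 0.49 ± 0.46 without them, and Crabp2 at 0.22 ± 0.50 with and 0.23 ± 0.33 without them. Rarg, which did not separate by number, was at -0.06 ± 0.12. The KD effect in NPCs minus that in serum gave 0 calls of 9 and 0% of 14374 genes, with 0 of the set at an unadjusted p under 0.05 and 0 in DESeq2.

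Genes whose group means ran most like each member's were found over the 21 groups among 13732 genes, by Pearson correlation of log2(CPM + 0.5). For Cyp26a1 these were Dll3 (0.95), Cbr1 (0.94) and Amot (0.94). For Cyp26b1 they were Ank2, Ctnna2 and Sorbs2 (0.97 to 0.96). Crabp2 was nearest to Dach1, Zmynd11 and Ptn (0.99 to 0.98), and Crabp1 to Tfap2b (0.96), Zbed3 (0.93) and Hoxb2 (0.92). Aldh1a2 was nearest to Srpr (0.96), Plk3 (0.95) and Epha2 (0.94), and Dhrs3 to Wdr45, Tfpi and Lefty1 (0.91 each). Esrp2 (0.94) and Ppan (0.93) were among the 3 nearest to Rarg. By Spearman correlation Aldh1a2 reached 0.61 to 0.78 with its 3 genes. Cyp26c1, Rara and Rarb were left out because their group means, with 0.5 CPM added, spanned under 4-fold. Those of Cyp26c1 also stayed under 1 CPM. With 0.1 CPM added instead, Rarb met the rule. The 21 groups share culture states and lines, so these values describe the order of groups and carry no test.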

How the data were processed

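Poly(A) RNA of 63 libraries was sequenced after a Lexogen SENSE mRNA-Seq preparation, per the labels' protocols. Expected counts and TPM per Entrez gene were made by the authors with RSEM on mm9, per the submitters' processing notes and the file headers, and 4.65 to 7.86% of the expected counts were not whole. The aligner is not given in the sources used here. Transcript IDs in the deposited tables are RefSeq accessions. Gene names came from RefSeq and GENCODE tables of GRCm38. Of 24990 rows, 23447 matched by gene ID, 375 rows merge several genes, 1132 matched by accession and 36 matched otherwise or not.

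Expected counts were rounded and tested with edgeR 4.0.16 (R 4.3.3): TMM, filterByExpr with a minimum count of 10, quasi-likelihood F test over all genes, and Benjamini-Hochberg adjustment at 0.05. SE is the absolute log2 fold change over the square root of F. Genotype groups were fitted per state (WT and pKO as means of 2 lines), state changes and interactions across states. DESeq2 1.42.0, RLE size factors, no filter, a replicate block, single lines, lines as replicates and leaving out each library were alternatives. The members and lists were chosen with earlier results of these data known. Up to 4 list genes per comparison are named, by smallest p among those called. Some genes that these rules pick are not reported here. Totals had a median of 11882018 counts, and intervals cover counting error only. Nothing in the labels says that replicates are separate cultures, so p-values measure the spread between these libraries. Same-numbered libraries deviated together (correlation of deviations over 0.1 in every pair) in 2i (30 of 30 pairs, lowest 0.247), in the perturbation serum (9 of 9) and in the perturbation NPC libraries (9 of 9), and these numbers were taken as pairs. The genotype serum (29 of 30) and NPC (17 of 30) numbers were not. 1 deposited row held 0.668 to 6.04% of counts and was kept in the totals.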

Additional observations from a re-analysis of the deposited data

Results flagged for a closer look

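Within groups of 6 libraries, 79 sets of values were examined by Dixon's test, and 4 held a library far from the others, where chance gives about 1 in 20. Crabp2 was low in pKO2 serum replicate 3, at 4.53 CPM against 6.78 to 7.86 CPM in the other 5 pKO libraries. The serum library numbered 3 was also the lowest for Crabp2 in WT1 (5.30 CPM), WT2 (4.88), pInv (4.155), Ctrl (2.05), KD1 (2.51) and KD2 (2.79). In pKO1 it was the highest, at 7.86 CPM. Fibroblast markers were lower in the serum libraries numbered 3 as a set (204 to 2589 CPM) than in those numbered 1 (789 to 4584 CPM), with overlap. Their part in the flagged Crabp2 value was not tested. The other flags were all Cyp26c1, where a single library had any count: pKO2 2i replicate 1 (0.124 CPM), pKO2 NPC replicate 3 (0.0885 CPM) and KD2 serum replicate 2 (0.162 CPM). Each was 1 or 2 counts, under the 3 counts that a count of 0 allows.

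The effect of promoter deletion on Cyp26a1 differed between NPCs and serum. The tested difference was 2.46 on the log2 scale (adjusted p = 0.0104 in edgeR's quasi-likelihood test), and the call was lost without the replicates numbered 2 (1.96, adjusted p = 0.221) or 3 (2.36, adjusted p = 0.0836).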

How the results depend on the processing

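Of the log2 fold changes called in the main comparisons, none changed sign under the alternatives run. In the 2i comparison of pInv with WT, 2 genes of the set passed with WT1 as the only control line and 1 with DESeq2, with RLE size factors or with the replicate block, against 0 in the main fit, and 0 to 1 without single libraries. Between WT2 and WT1 in 2i, 1 passed with no low-count filter (main 2) and 0 to 2 without single libraries. For pKO in serum, 2 passed with DESeq2, 5 with the replicate block and 0 with lines as replicates (main 1), and 1 to 2 without single libraries. For pKO in NPCs, 0 passed with WT1, WT2 or pKO1 as the only line of its kind, with no low-count filter, with the replicate block or with lines as replicates, and 3 with pKO2 alone (main 1), and 0 to 1 without single libraries. Between serum and 2i, 2 passed in WT2 alone (main 4). For Ctrl NPCs, 3 to 6 passed without single replicates (main 7). With the replicate block the interaction of pKO with serum against 2i gave 1 gene (main 0) and that with NPCs against serum gave 3 (main 1), which was 0 to 2 without single replicates. Genotype serum and NPC numbers missed the rule for pairs, with 29 of 30 and 17 of 30 correlations of deviations over 0.1. Their medians were 0.335 and 0.11, and their lowest values 0.097 and -0.346. Serum numbers came close to the rule, but neither set of numbers was taken as pairs. The block changed no other call on paired libraries than those given above.

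Uncalled values near 0 changed sign. With 1 line in place of 2, Rara for pKO was -0.17 in 2i (WT1 alone) and 9.784e-05 in serum (pKO2 alone), Rara between serum and 2i was 0.24 (WT2 alone), and Cyp26a1 for pKO in NPCs was -0.35 (WT2 alone) and -0.39 (pKO2 alone). With KD1 alone Cyp26a1 was 0.13 in serum and Cyp26b1 0.035 in NPCs. Without single libraries Rara for pKO in 2i ranged from -0.0066 to 0.094 and Cyp26a1 for pKO in NPCs from -0.035 to 0.53. For KD in serum Cyp26a1 ranged from -0.57 to 0.22 and Crabp1 from -0.13 to 0.62. For KD in NPCs Cyp26b1 ranged from -0.66 to 0.39, Rarb from -0.022 to 1.33, Rarg from -0.13 to 0.011, Crabp1 from -0.55 to 1.15 and Crabp2 from -0.11 to 0.87. The cause of these changes was not tested.

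Counts over all genes moved more. Over the alternatives with all replicates they ran from 1 to 2912 for pKO in 2i (main 1263), 12 to 2887 in serum (main 845) and 0 to 1897 in NPCs (main 1168), in each case lowest with lines as replicates, which leaves 2 against 2. For pInv they ran from 77 to 824 in 2i (main 127), 4 to 58 in serum (main 8) and 1 to 55 in NPCs (main 2). Between WT lines they ran up to 4138 in 2i (main 2506), 351 in serum (main 75) and 168 in NPCs (main 15). For the differences of the pKO effect they ran up to 826 (main 177) and 1600 (main 630), for that of pInv up to 20 (main 1), and for KD up to 1 in serum, 2 in NPCs and 4 for their difference (main 0 in each). Cyp26c1 and, in 2i, Cyp26a1 are limited by depth.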
